A study of Homo sapiens with 3 samples.

Results

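The nuclear pore complex was examined through 30 RefSeq transcripts, 1 for each of 30 genes that encode its subunits, out of 25443 transcripts listed in at least 1 of 3 libraries. The transcripts were chosen by identifier and not by a measured value, but with earlier results of these data known. All 30 had reads in every library. They comprised 14 scaffold, 9 FG, 3 membrane and 4 peripheral non-FG transcripts. The cells were HEK 293, a human embryonic kidney line (named HEK293T, its derivative with the SV40 large T antigen, in the study's methods), kept for 48 h under 3 conditions. The BDE-209 library came from cells in medium with 1 µM BDE-209, a fully brominated diphenyl ether flame retardant, and 1 mM DMSO, its solvent. The DMSO library came from cells with 1 mM DMSO alone, and the negative control from cells in medium with neither. Each condition had 1 library of 1 cell line, so no difference below has a replicate check and no test between conditions was possible. The polyA RNA was sequenced, and the deposited values are RPKM, in which a read count is divided by the length of its transcript and by a total of reads for that library, so that levels can be compared between genes.

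The nuclear pore complex is the channel through which proteins and RNA pass between cytoplasm and nucleus. Its scaffold is built from the Y complex, which forms the outer rings, and the inner ring. FG nucleoporins, named for their phenylalanine-glycine repeats, line the channel and bind transport receptors, while membrane nucleoporins anchor the assembly in the nuclear envelope. Cytoplasmic filaments and the nuclear basket extend from both faces and take part in mRNA export. Dividing cells disassemble the complex in mitosis and rebuild it afterwards.

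Whole numbers of reads were recovered from the steps between the RPKM values, and the totals by which the values had been divided came out as 4843623 reads for the negative control, 4782043 for DMSO and 4676793 for BDE-209. These totals are lower than the mapped and the uniquely mapped reads that the study lists for each library, and DMSO and BDE-209 stand in the other order. Which reads entered them is not given in the sources used here. Other totals would shift all ratios of a comparison alike, and would leave the pore transcripts where they are relative to all transcripts. The read counts below are the smallest that the values allow. Intervals are 95% Clopper-Pearson intervals of the ratio of these counts. They cover counting error only and compare libraries, not conditions. Of 6 markers of the line, VIM, KRT8, KRT18, INA and NEFM had between 50 and 3116 reads in each library, and PAX2 was not listed. Among markers of other cell types, PTPRC and CD3E were not listed, ALB and MYH7 had at most 1 read in any library and NPHS1 had 6 to 11 reads. Non-coding transcripts took 5.05% of the RPKM total in the negative control, 4.38% in DMSO and 4.47% in BDE-209, and the median-of-ratios size factors of the 3 libraries were 0.999, 1.003 and 1.001 in the same order.

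Levels of the pore transcripts were high for the most part and differed more between genes than between libraries. The median level of the 30 transcripts was 41.5 RPKM in the negative control, 43.4 in DMSO and 43.7 in BDE-209, against 11.5, 11.7 and 11.7 RPKM over the 14258 protein-coding transcripts with a mean of at least 1 RPKM. The highest levels belonged to TPR, the filament protein of the nuclear basket, and to NUP205, a large inner ring scaffold protein. TPR (NM_003292) was listed at 113 RPKM in the negative control, 117 in DMSO and 123 in BDE-209. For NUP205 (NM_015135) the levels were 112, 115 and 119 RPKM. Below them stood the membrane protein POM121, the basket FG protein NUP153, the Y complex member NUP133 and the inner ring member NUP188, with mean levels of 89.6, 84.4, 79.9 and 75.7 RPKM. At the other end of the well-covered transcripts were NUP98, an FG protein found on both faces of the pore, at a mean of 21.9 RPKM, the inner ring member NUP35 at 22.6 and the Y complex member SEH1L at 23.1. Over the order of mean levels, 18 of the 29 neighbouring pairs had ranges over the 3 libraries that overlapped, so their order is not settled by these values. TPR and NUP205 were such a pair, whereas NUP205 and POM121 were apart, as were NUP188 and the inner ring member NUP155. The ranges cover no error between genes, and POM121 has a near-identical copy, so ranges apart do not settle an order either.

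**Figure D1:**
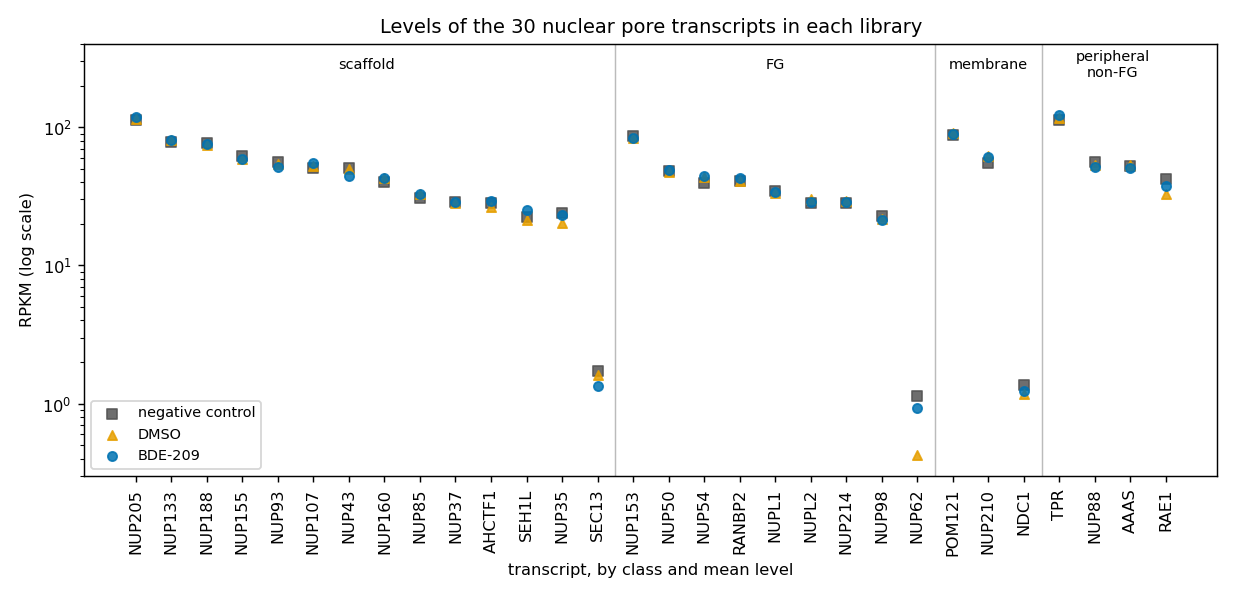
RPKM (log scale) of the 30 nuclear pore transcripts, ordered by class and mean level, with 1 point for each library. The 3 libraries nearly coincide for most transcripts, and SEC13, NUP62 and NDC1 stand apart at 0.426 to 1.73 RPKM while the other 27 lie at or above 20.4 RPKM.

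Levels of the other members varied within each class, and the ranges of the classes overlapped. In the Y complex, NUP107, NUP160, NUP85 and NUP37 form the stem and arms together with NUP133. NUP107 was listed at 50.9 RPKM in the negative control, 52.1 in DMSO and 54.8 in BDE-209, and NUP133 at 78.2, 80.2 and 81.3. NUP160 had 39.9, 43.2 and 43.0 RPKM, NUP85 had 30.6, 32.9 and 32.9, and NUP37 had 28.9, 28.4 and 28.9. NUP37 had the smallest spread of the 30, with a range over the 3 libraries of 1.67% of its mean. NUP93, which links the inner ring to the channel, was listed at 56.5, 54.0 and 51.9 RPKM, and NUP155, which faces the membrane, at 61.4, 58.9 and 58.9.

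Among the FG transcripts, NUP50, a basket protein that binds importin alpha, had 47.8, 47.5 and 49.1 RPKM in the negative control, DMSO and BDE-209. NUP54 had 39.2, 43.5 and 44.3 RPKM, NUPL1 had 34.5, 33.4 and 34.2, and NUP214, a cytoplasmic filament protein, had 28.2, 29.5 and 28.9. NUP88, the non-FG partner of NUP214, was listed at 56.3, 52.9 and 51.7 RPKM, above NUP214 in every library. Of the 29 transcripts with a mean of at least 1 RPKM, 13 were highest in the negative control, 6 in DMSO and 10 in BDE-209. No library was highest throughout. The same counts over all tested transcripts are not given here, so these counts are no result about the pore transcripts. RAE1 had the widest range of the 27 well-covered transcripts, 24.0% of its mean, followed by SEH1L at 16.1% and NUP35 at 16.0%.

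By class, the 14 scaffold transcripts added up to 663 RPKM in the negative control, 659 in DMSO and 670.4 in BDE-209. The 9 FG transcripts added up to 329, 330.3 and 334 RPKM, the 3 membrane transcripts to 145, 154 and 151, and the 4 peripheral non-FG transcripts to 263, 256 and 263. Over all 30, the summed level was 1399.7 RPKM in the negative control, 1399.9 in DMSO and 1418 in BDE-209. Their reads came to 0.714%, 0.720% and 0.734% of the recovered totals. Since RPKM is relative to the reads of each library, fewer cells and less RNA per cell cannot be told apart, and neither would show in these sums.

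Values of 3 transcripts lay near the floor. NUP62 (NM_153719), the FG protein at the centre of the channel, was listed at 1.14 RPKM in the negative control, 0.426 in DMSO and 0.934 in BDE-209, from 19, 7 and 15 reads. SEC13 (NM_183352), shared between the Y complex and the COPII coat of transport vesicles, had 1.73, 1.61 and 1.35 RPKM from 12, 11 and 9 reads. For the membrane protein NDC1 (NM_018087) the levels were 1.36, 1.17 and 1.24 RPKM from 32, 27 and 28 reads. These 3 lay far below the other 27 transcripts, the lowest of which had a mean of 21.9 RPKM.

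Across the whole table, levels were related to the number of transcript identifiers listed for a gene. Where a gene had 1 identifier, the median of its highest mean level was 6.83 RPKM over 10014 genes, and with 2 identifiers it was 7.32 RPKM over 3637 genes. With 3 identifiers it was 1.17 RPKM over 1085 genes, and with 4 or more it was 0.768 RPKM over 463 genes. NUP62 has 4 listed identifiers, of which the highest was at 1.14 RPKM in the negative control, and NDC1 has 3. SEC13 has 2. NUP98 has 4, and these split into 2 long transcripts at 20.5 to 22.7 RPKM and 2 short ones at 0.438 to 1.15 RPKM. The share of this relation in the low levels of NUP62, SEC13 and NDC1 was not tested, and how reads shared by isoforms were assigned is not given in the sources used here. The levels of these 3 genes, and that of NUP98, are therefore those of single listed transcripts and not of the gene.

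**Figure D2:**
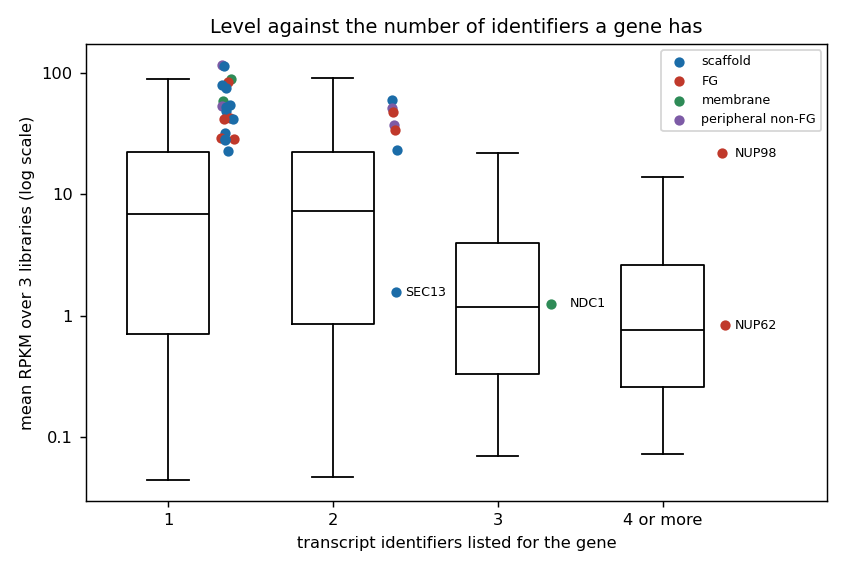
Mean RPKM over the 3 libraries (log scale) against the number of transcript identifiers listed for a gene; boxes show the quartiles and median of each gene's highest transcript over all protein-coding genes, whiskers the 5th to the 95th percentile, and points the pore transcripts by class. Genes with 3 or more identifiers lie lower (medians of 1.17 and 0.768 RPKM against 6.83 and 7.32), and NDC1 and NUP62 fall among them.

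The comparison of BDE-209 with DMSO, both with the solvent, addresses the effect of BDE-209. Ratios are log2 values with 0.1 added to each RPKM, which understates differences of low transcripts, and 29 of the 30 transcripts passed the filter of a mean of at least 1 RPKM over the 3 libraries (NUP62 did not). None of the 29 differed by 1.5-fold or more, against 4.79% of the 14258 transcripts with the same filter (2.2% higher and 2.6% lower in BDE-209), nor by 2-fold, the fold used in the study, against 1.07%. Most transcripts past 1.5-fold had few reads, and the share was 0.0235% among the 8525 with at least 100 reads in every library, to which 27 of the 29 belong. Ratios of the 29 ran from -0.24 to 0.23, with a median of 0.018 beside -0.0014 for all 14258. Of the 29, 18 were above 0, against 49.6% of the 14258. Intervals left out no difference for 4 of the 29, 3 higher in BDE-209 and 1 lower, against 6% of the 14258 (2.75% higher and 3.25% lower) and against 7.01% of the 8525. The largest of these 4 differences, in SEH1L, was 17.2%.

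Of the scaffold transcripts, the median ratio of BDE-209 to DMSO was 0.021. Of the 14, 10 were above 0, against 49.6% of all tested transcripts. SEH1L (NM_031216), a Y complex member encoded at chr18:12947132-12987535 on the plus strand (GRCh37, as are all positions here), had 361 reads and 21.5 RPKM in DMSO and 414 reads and 25.2 RPKM in BDE-209. Its log2 ratio was 0.23 (interval 0.023 to 0.44). AHCTF1 (NM_015446), also called ELYS, the protein that seeds pore assembly on chromatin after mitosis, had 26.6 RPKM from 1101 reads in DMSO and 29.0 RPKM from 1173 reads in BDE-209, a ratio of 0.12 (interval 0.0036 to 0.24). The lower bound of AHCTF1 lies close to 0. NUP43 (NM_198887), a further Y complex member at chr6:150045451-150070801 on the minus strand, went the other way, from 49.9 RPKM and 921 reads in DMSO to 44.6 RPKM and 806 reads in BDE-209. Its ratio was -0.16 (interval -0.30 to -0.022). The remaining members of the Y complex with over 100 reads, NUP37, NUP85, NUP107, NUP133 and NUP160, had ratios between -0.0047 and 0.072, and every interval included no difference.

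In the inner ring, NUP35 had 161 reads and 20.4 RPKM in DMSO against 180 reads and 23.3 RPKM in BDE-209, a ratio of 0.19 with an interval from -0.12 to 0.51. NUP93, NUP155, NUP188 and NUP205 had ratios from -0.057 to 0.049. NUP155 was at 58.9 RPKM in both libraries. SEC13 had the lowest ratio of all 29, -0.24, but it rests on 9 reads against 11 and its interval ran from -1.71 to 1.15.

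The 8 FG transcripts that passed the filter had a median ratio of 0.016 and ran from -0.077 in NUPL2, a cytoplasmic FG protein now named NUP42, to 0.074 in RANBP2, the large filament protein that binds Ran. RANBP2 had 2291 reads and 40.9 RPKM in DMSO and 2358 reads and 43.1 RPKM in BDE-209, and its interval of -0.0099 to 0.16 included no difference. All 8 intervals of the FG class did. For NUP54 and NUPL1 (now NUP58), the partners of NUP62 in the channel, the ratios were 0.023 and 0.036. NUP62 itself had a ratio of 0.97, from 15 reads against 7, with an interval from -0.25 to 2.67.

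The membrane transcripts POM121, NUP210 and NDC1 had ratios of -0.029, -0.034 and 0.078, and all 3 intervals included no difference. TPR, among the peripheral transcripts, had 5421 reads and 117 RPKM in DMSO and 5583 reads and 123 RPKM in BDE-209, a ratio of 0.075 (interval 0.020 to 0.13). It has the most reads of the 30 and the narrowest interval. RAE1, an mRNA export factor that also serves in spindle assembly, had 286 reads and 33.0 RPKM in DMSO and 321 reads and 37.8 RPKM in BDE-209. That ratio of 0.20 had an interval from -0.036 to 0.43. AAAS, also called ALADIN, followed SEC13 and NUP43 in the order from the lowest ratio, at -0.085 (interval -0.28 to 0.11), with 53.5 RPKM in DMSO and 50.4 in BDE-209.

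**Figure D3:**
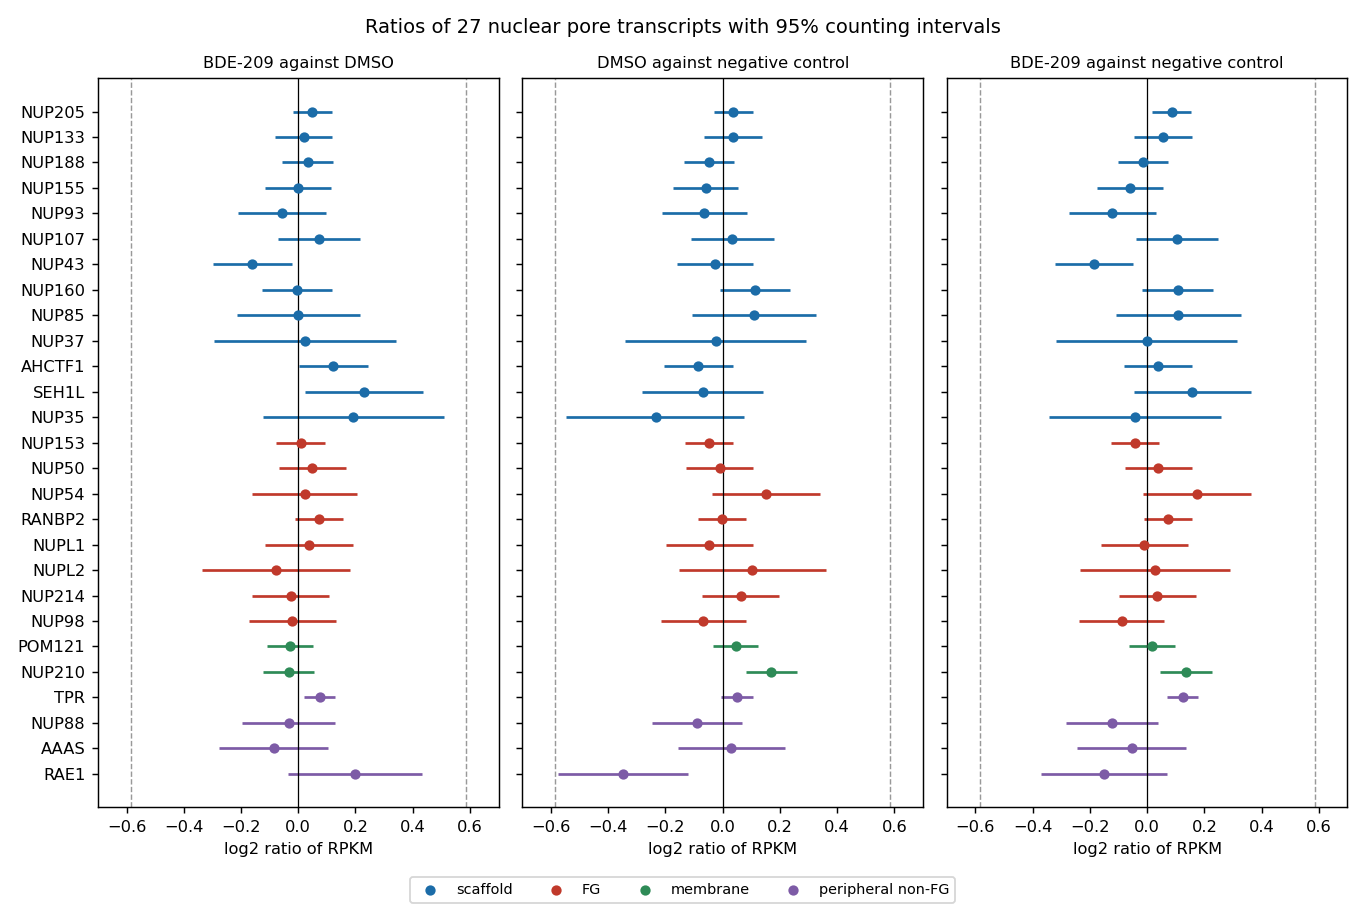
Log2 ratios of RPKM (points) with 95% Clopper-Pearson counting intervals (lines) for the 27 pore transcripts with at least 100 reads in every library, coloured by class, in the 3 comparisons; dashed lines mark 1.5-fold. Every point lies inside the dashed lines, and the intervals of SEH1L, AHCTF1, TPR and NUP43 leave out 0 in the left panel.

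The comparison of DMSO with the negative control addresses the solvent. None of the 29 transcripts reached 1.5-fold, against 4.8% of the 14258 (2.33% higher and 2.48% lower in DMSO) and 0.0469% of the 8525, or 2-fold, against 1.11%. The ratios ran from -0.35 to 0.17. The median was -0.024 beside 0.0062 over all tested transcripts. Of the 29, 12 were above 0, against 51.5% of all tested transcripts. The intervals of 2 of the 29 left out no difference, RAE1 lower and NUP210 higher in DMSO, against 8.85% of all tested transcripts (5.01% higher and 3.84% lower) and 11.3% of those with at least 100 reads in every library.

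RAE1 (NM_003610), encoded at chr20:55926279-55954267 on the plus strand, had 369 reads and 42.0 RPKM in the negative control and 286 reads and 33.0 RPKM in DMSO. Its ratio was -0.35 (interval -0.58 to -0.12), a level 21.4% lower. The second listed transcript of RAE1 had 339 and 269 reads, with a ratio of -0.31. Its length of 1839 bases is close to the 1815 bases of the first, and both may hold the same reads, so it is not a separate measurement.

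NUP210 (NM_024923), a membrane protein of the pore at chr3:13357735-13461822 on the minus strand, had 1920 reads and 55.1 RPKM in the negative control and 2133 reads and 62.0 RPKM in DMSO. The ratio was 0.17 (interval 0.081 to 0.26), a level 12.5% higher. POM121 had 88.3 and 91.2 RPKM, with an interval from -0.033 to 0.12, and NDC1 rests on 32 and 27 reads. The membrane class therefore gave a median of 0.046 over 3 transcripts of unequal precision.

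After NUP210, the highest ratios of DMSO to the negative control were 0.15 in NUP54 (interval -0.037 to 0.34) and 0.11 in the Y complex member NUP160 (interval -0.011 to 0.24). After RAE1, the lowest were -0.23 in NUP35 (interval -0.55 to 0.074) and -0.21 in NDC1 (interval -1.02 to 0.56). None of these 4 intervals left out no difference. The scaffold class had a median of -0.037, with 5 of 14 above 0, and the FG class a median of -0.0057, with 3 of 8 above 0. Over all tested transcripts, 51.5% were above 0. NUP62, outside the filter, had a ratio of -1.24 from 7 reads in DMSO and 19 in the negative control, and its interval of -2.92 to -0.11 left out no difference. The other NUP62 transcripts with reads in both libraries had 9 against 19 reads and 5 against 6.

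Set against the negative control, BDE-209 with its solvent again gave no pore transcript past 1.5-fold, against 4.77% of all tested transcripts (2.15% higher and 2.62% lower in BDE-209) and 0.0938% of the 8525, and none past 2-fold, against 1.06%. The ratios ran from -0.34 in SEC13, which had 9 reads against 12, to 0.17 in NUP54. Their median was 0.016 beside 0.0024 for all 14258. Of the 29, 15 were above 0, against 50.5% of the 14258. Intervals left out no difference for TPR, NUP205 and NUP210, higher in BDE-209, and for NUP43, lower. These 4 of 29 stand against 9.43% of all tested transcripts (4.94% higher and 4.48% lower) and 12.2% of those with at least 100 reads in every library. Each of the 3 comparisons shares a library with each of the others, so they are not independent. The DMSO library enters the 2 comparisons above on opposite sides. SEH1L and AHCTF1 were lowest in DMSO, and TPR was lowest in the negative control. AHCTF1 had a ratio of 0.038 between BDE-209 and the negative control (interval -0.079 to 0.16).

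TPR, at chr1:186280784-186344825 on the minus strand, had 5305 reads in the negative control and 5583 in BDE-209, a ratio of 0.12 (interval 0.070 to 0.18) and a level 8.99% higher. NUP205 had 3418 reads and 112 RPKM against 3502 reads and 119 RPKM, a ratio of 0.086 (interval 0.017 to 0.15). For NUP210 the ratio was 0.14 (interval 0.046 to 0.23), with 60.6 RPKM in BDE-209. NUP43 had 950 reads and 50.8 RPKM in the negative control against 806 reads and 44.6 RPKM in BDE-209, a ratio of -0.19 (interval -0.32 to -0.050). NUP54 and SEH1L, the highest and second highest ratios, were at 0.17 (interval -0.014 to 0.36) and 0.16 (interval -0.045 to 0.36). RAE1 was at -0.15 (interval -0.37 to 0.069). The class medians were 0.019 for scaffold, 0.031 for FG, 0.016 for membrane and -0.089 for peripheral non-FG transcripts.

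**Figure D4:**
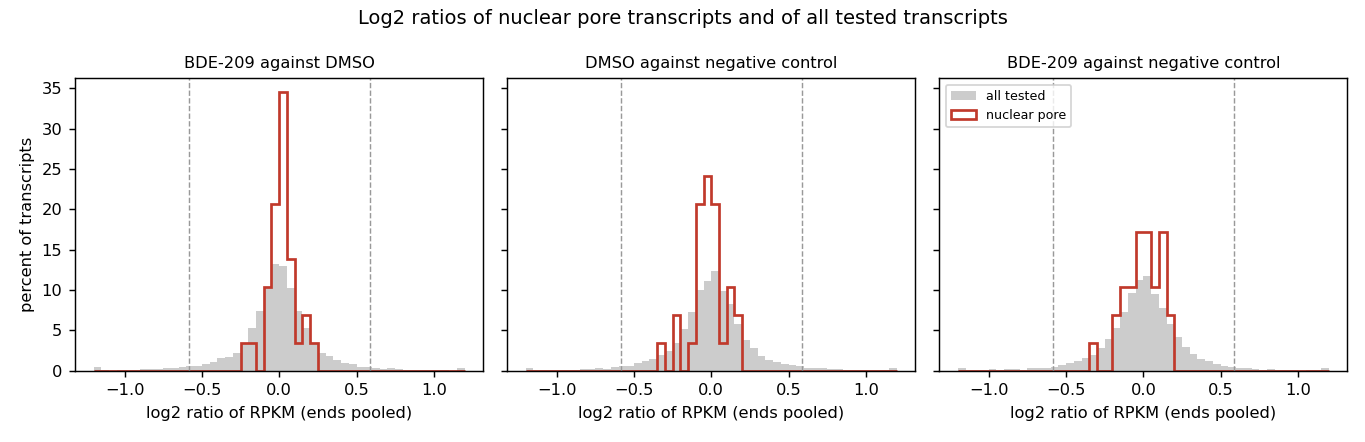
Percent of transcripts by log2 ratio of RPKM in bins of 0.05 for the 29 pore transcripts that passed the filter (red outline) and for all 14258 tested transcripts (grey), in the 3 comparisons; values beyond the ends are pooled in the end bins and dashed lines mark 1.5-fold. The pore transcripts lie near 0 and none is past the dashed lines, where 4.77% to 4.8% of all tested transcripts are, but only 0.0235% to 0.0938% of those with at least 100 reads in every library.

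Of the 29 pore transcripts, 27 had at least 100 reads in every library, as did 8525 of the 14258 tested. The median size of the ratio over the 8525 was 0.074 for BDE-209 against DMSO, 0.085 for DMSO against the negative control and 0.089 for BDE-209 against the negative control. Over the 27 pore transcripts it was 0.036, 0.059 and 0.073 in the same order. These sizes are not matched on depth beyond the minimum of 100 reads, since in BDE-209 the 27 held 34261 reads and the 8525 held 5191709, which is more reads for each pore transcript, and the part of depth in the smaller sizes was not tested. The 5191709 reads exceed the recovered total of 4676793 for BDE-209, and whether reads were counted for more than 1 transcript was not tested. The 8525 can hold several transcripts of a gene, while the pore transcripts are 1 for each gene.

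Several genes had a second well-covered transcript, which cannot be taken as independent because reads from shared exons can enter both. The paired ratios of BDE-209 to DMSO were 0.049 and 0.038 in NUP50, 0.036 and 0.041 in NUPL1, 0.20 and 0.21 in RAE1, -0.085 and -0.021 in AAAS, and 0.23 and 0.15 in SEH1L. The pairs of NUP155 and NUP98 lay close to 0, at 7.3e-06 and -0.019 and at -0.021 and -0.0095. For DMSO against the negative control, the SEH1L transcripts had ratios of opposite sign, -0.070 for the longer of 3513 bases and 0.035 for the shorter of 1891 bases.

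Near-identical copies limit 2 members. POM121C, a copy of POM121, had 87.9 RPKM in the negative control, 89.9 in DMSO and 85.4 in BDE-209, close to the 88.3, 91.2 and 89.3 RPKM of POM121, so the levels of both are uncertain. The RGPD genes, which are copies of RANBP2 and were looked up after the values were seen, were each listed at or below 2.39 RPKM.

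The pore works with transport receptors and the GTPase Ran, whose gradient across the envelope gives transport its direction. From lists of the Ran cycle (6 genes), importins (17) and exportins (7), each gene was represented by its transcript with the highest mean. Between BDE-209 and DMSO no transcript of the 5, 17 and 7 that passed the filter reached 1.5-fold, against 4.79% of all tested transcripts and 0.0235% of the 8525, and the list medians were -0.012, 0.0033 and 0.0069. RAN had 582 RPKM in the negative control, 571 in DMSO and 594 in BDE-209. KPNB1, importin beta, was listed at 332, 324 and 321 RPKM. XPO1, the exportin for proteins with a leucine-rich export signal, was listed at 183, 167 and 179 RPKM.

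Of the transcripts that passed in these 3 lists, the intervals of 0, 0 and 2 left out no difference between BDE-209 and DMSO, of 2, 4 and 2 between DMSO and the negative control, and of 1, 7 and 1 between BDE-209 and the negative control. Over all tested transcripts the shares were 6%, 8.85% and 9.43% in these comparisons, and 7.01%, 11.3% and 12.2% of the 8525. The 7 of 17 importins divided into 4 higher and 3 lower in BDE-209. The 2 between BDE-209 and DMSO were XPO1 and CSE1L, the exportin that returns importin alpha to the cytoplasm, and their lower bounds of 0.0012 and 0.00067 lay close to 0 (CSE1L is named after its values were seen). XPO1 had 2049 reads in the negative control, 1852 in DMSO and 1933 in BDE-209, and its ratios were -0.13 for DMSO against the negative control and 0.094 for BDE-209 against DMSO. RANBP3, a cofactor of XPO1, was the only transcript of the 3 lists that passed the filter and lay past 1.5-fold in any comparison. It had a ratio of -0.73 between BDE-209 and the negative control, with 14 against 25 reads, and has 3 listed identifiers. The interval of RANBP3, from -1.84 to 0.21, included no difference. In that comparison 4.77% of all tested transcripts lay past 1.5-fold, and 0.0938% of the 8525, to which RANBP3 does not belong.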

How the data were processed

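RNA from 1 library for each of BDE-209, DMSO and the negative control was analysed. Reads were single-end and 49 bases long. For alignment to hg19 the authors used SOAPaligner 2.21 with up to 2 mismatches and discarded reads without a unique position. They deposited 1 RPKM value for each RefSeq transcript with a read. Absent transcripts were set to 0. Library totals were recovered as the numbers that make transcript lengths whole where 1 read was counted, and read counts as the smallest whole numbers that give all 3 values at a length not below the shortest coding length of the gene in GENCODE 44 (GRCh37). Scripts were tested on simulated data. RefSeq identifiers were paired with symbols from a RefSeq table of GRCh38.p14 for 24432 of 25443 transcripts (96.0%), and gene positions come from GENCODE. Calculations ran in Python (3.11.15) with pandas (2.3.3) and numpy (2.4.6), intervals in scipy (1.17.1) and plots in matplotlib (3.10.9).

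Protein-coding transcripts with a mean of at least 1 RPKM were compared as log2(RPKM + 0.1), with 1.5-fold as the call. With 1 library per condition there was no test, and intervals cover counting error only. On a transcript of 1 kb, 1 read is worth 0.206, 0.209 and 0.214 RPKM in the negative control, DMSO and BDE-209, and a floor of 3 reads 0.619, 0.627 and 0.641 RPKM. All members may be named, with the 3 highest and 3 lowest in each comparison given in full, as may RAN, KPNB1, XPO1 and every listed transport gene past 1.5-fold. A marker of another cell type is not reported here. The members and lists were chosen with earlier results of these data known. Alternatives covered the added value, the filter, the scaling, the fold, the class of POM121 and summed isoforms.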

Additional observations from a re-analysis of the deposited data

How the results depend on the processing

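With 1 library per condition, no alternative left out a replicate, and no paired analysis was possible because each condition has a single library. The number of pore transcripts past 1.5-fold stayed at 0 under both other scalings. It was also 0 with 0.5 or 1 RPKM added, with a mean of at least 5 RPKM and with 2-fold as the call. From 0, these last settings could not have raised it, so they do not check the number. Without the filter it was 1 for BDE-209 against DMSO and 1 for DMSO against the negative control, in both cases NUP62, and with summed isoforms it was 1 for DMSO against the negative control, again NUP62. The numbers of pore transcripts whose interval left out no difference stayed at 4, 2 and 4 under the alternatives run, except that NUP62 made it 3 for DMSO against the negative control without the filter. The added value does not enter these intervals. A mean of at least 5 RPKM, or at least 100 reads, removed only SEC13 and NDC1, whose intervals included no difference. Those settings could therefore not change the numbers, and only the scalings and the missing filter could. The median ratio of the pore transcripts ranged from 0.018 to 0.021 for BDE-209 against DMSO, from -0.030 to -0.0079 for DMSO against the negative control and from 0.0079 to 0.027 for BDE-209 against the negative control.

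The membrane median moved most, since it rests on 3 transcripts. For BDE-209 against DMSO it turned from -0.029 to 0.022 with POM121 counted as FG. For DMSO against the negative control it was 0.11 with a mean of at least 5 RPKM, which removes NDC1, and -0.020 with POM121 counted as FG. For BDE-209 against the negative control it was 0.076 with a mean of at least 5 RPKM.

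Over all tested transcripts, the numbers past 1.5-fold were 683 for BDE-209 against DMSO, 685 for DMSO against the negative control and 680 for BDE-209 against the negative control. In the same order they were 261, 257 and 265 with 1 RPKM added, 4623, 4581 and 4677 without the filter, 72, 65 and 88 with a mean of at least 5 RPKM, and 152, 158 and 151 at 2-fold. With 0.5 RPKM added, BDE-209 against DMSO gave 438. Among transcripts with 100 reads or more in every library, a limit chosen after seeing the data, they were 2, 4 and 8.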

Other observations

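The proteins of the nuclear lamina and envelope, to which the pore is anchored, and the mRNA export factors were looked at as 2 further lists. Of 12 lamina and envelope genes, 10 passed the filter, and their median ratio was 0.018 for BDE-209 against DMSO, -0.066 for DMSO against the negative control and 0.0071 for BDE-209 against the negative control. LMNB1, a B-type lamin, was at 118, 111 and 111 RPKM in the negative control, DMSO and BDE-209, and LBR, the lamin B receptor, at 114, 115 and 116 RPKM. BANF1, a DNA-binding protein that helps the envelope to reform after mitosis, had 762 reads in the negative control, 705 in DMSO and 634 in BDE-209, a ratio of -0.21 for BDE-209 against the negative control (interval -0.37 to -0.061). SYNE2, a linker to the cytoskeleton, had 875, 912 and 938 reads, a ratio of 0.15 in the same comparison (interval 0.016 to 0.29). These were 2 of the 10 that passed, against 9.43% of all tested transcripts and 12.2% of the 8525 with at least 100 reads. For BDE-209 against DMSO, the ratios were -0.12 (interval -0.28 to 0.036) for BANF1 and 0.072 (interval -0.060 to 0.21) for SYNE2. Both of those intervals included no difference. SUN1, an inner membrane protein, was the 1 transcript of this list that passed the filter and lay past 1.5-fold, with ratios of -0.91 for DMSO and -0.88 for BDE-209 against the negative control, from 5, 5 and 10 reads in DMSO, BDE-209 and the negative control. Both of its intervals included no difference. Past 1.5-fold were 4.8% and 4.77% of all tested transcripts in these comparisons. The shares were 0.0469% and 0.0938% among the 8525, to which SUN1 does not belong.

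Of 10 mRNA export genes, 9 passed the filter, with medians of 0.030, -0.044 and -0.015 in the same order of comparisons, and none was past 1.5-fold or had an interval that left out no difference, against 4.77% to 4.8% and 6% to 9.43% of all tested transcripts, shares at which 0 of 9 is no result about the list. Among 5 other pore proteins, SENP1 was not listed and 3 passed. TMEM209, an envelope protein, had 471 reads in the negative control, 517 in DMSO and 538 in BDE-209, and the SUMO protease SENP2 had 398, 432 and 445 reads. The ratios of BDE-209 to the negative control were 0.24 (interval 0.061 to 0.42) for TMEM209 and 0.21 (interval 0.013 to 0.41) for SENP2. These were 2 of the 3 that passed, against 9.43% of all tested transcripts and 12.2% of the 8525 with at least 100 reads. For BDE-209 against DMSO, the ratios were 0.089 (interval -0.087 to 0.27) for TMEM209 and 0.075 (interval -0.12 to 0.27) for SENP2. Both of those intervals included no difference. The genes of these lists other than SUN1 are named after their values were seen.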
